A study of Mus musculus with 20 samples.

Results

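The 10 genes described here encode enzymes that put double bonds into fatty acids and lengthen them: the desaturases Fads1, Fads2, Fads3, Fads6 and Scd2, and the elongases Elovl1, Elovl2, Elovl3, Elovl5 and Elovl7. They were picked by gene name from the 38924 genes of the deposited expression table, and all 10 were found. Liver RNA of 20 male C57/BL6 mice was sequenced, with 5 mice in each of 4 groups, which were wild type on control diet (NDWT), TSP-1 null on control diet (NDKO), wild type on CDAHFD (HFWT) and TSP-1 null on CDAHFD (HFKO). CDAHFD is a high fat diet without choline and low in methionine, with amino acids in place of protein, that brings on steatohepatitis and fibrosis. Both diets were given for 12 weeks to mice bought at 5 weeks of age and acclimated for 1 week. TSP-1 (thrombospondin 1, gene Thbs1) is a matrix protein known as an activator of latent TGF-β, and the TSP-1 null mice came from a line that lacks it in the whole body. The study asked how loss of TSP-1 bears on diet-induced liver disease, so each gene was compared between the diets within a genotype and between the genotypes within a diet. Whole tissue was measured, and fewer cells of a type cannot be told apart from less RNA per cell.

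Essential fatty acids from the diet become long polyunsaturated fatty acids such as arachidonic and docosahexaenoic acid by alternating steps in the endoplasmic reticulum. Fads2 inserts the first double bond, Elovl5 adds carbons, Fads1 inserts the next double bond, and Elovl2, with Elovl5, adds further carbons. Elongases carry out the first, rate-limiting condensation of a cycle that is completed by a ketoacyl reductase, a dehydratase and an enoyl reductase, while desaturases take electrons from cytochrome b5 and its reductase. Elovl1, Elovl3 and Elovl7 work mainly on saturated and monounsaturated chains, including those that end up in sphingolipids. The liver is a main site of this synthesis, and its products pass into phospholipids and lipoproteins.

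Levels are given as FPKM, fragments scaled by gene length and by the total of the library, which can be set side by side between genes. Libraries held 15641545 to 23276322 fragments on genes, with a median of 18950482.5. Hepatocyte genes led in every library, with Alb, serum albumin, as the top gene in all 20, and all 10 hepatocyte markers were above the filter. Thbs1 itself went against the labels on the control diet: it measured 0.197 ± 0.103 FPKM (SD, n = 5) in the libraries labelled WT and 1.30 ± 0.390 in those labelled TSP-1 null, against 4.62 ± 1.22 and 3.44 ± 0.547 on CDAHFD. On CDAHFD its ranges overlapped, at 3.46 to 6.10 FPKM in HFWT and 3.05 to 4.40 in HFKO. Every direction between genotypes below is therefore that of the libraries as labelled. The same holds for each diet comparison within a genotype and for the interaction. A difference was called when limma, fitted to log2(FPKM + 0.1) of the 14524 genes that exceeded 0.5 FPKM in 5 or more libraries, gave a false discovery rate (FDR) under 0.05 and an absolute log2 fold change (log2FC) above 0.58. All 10 genes passed the filter, but Elovl7 passed only through the CDAHFD libraries.

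The elongases carry a histidine box, a cluster of histidines in the active site. Its coding sequence is shown because Elovl2 and Elovl5 are closest to each other in sequence, as are Elovl1 and Elovl7. Each line is 45 bases of the GENCODE M21 coding sequence on GRCm38, 5′ to 3′ on the coding strand, and the capitals are the 5 codons of the box.
Elovl2: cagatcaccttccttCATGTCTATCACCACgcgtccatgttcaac
Elovl5: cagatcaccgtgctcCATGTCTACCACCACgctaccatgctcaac
Elovl1: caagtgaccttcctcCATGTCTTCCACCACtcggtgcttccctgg
Elovl7: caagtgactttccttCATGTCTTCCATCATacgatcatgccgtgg
Elovl3: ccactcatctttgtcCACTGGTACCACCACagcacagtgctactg
The stretches lie at chr13:41189986-41190030 on the minus strand in exon 5 of Elovl2, chr9:77976835-77976879 on the plus strand in exon 5 of Elovl5, chr4:118431439-118431483 on the plus strand in exon 6 of Elovl1, chr13:108274316-108274360 on the plus strand in exon 6 of Elovl7, and chr19:46134407-46134451 on the plus strand in exon 4 of Elovl3. Over the whole coding sequence, Elovl2 and Elovl5 were identical at 64.48% of aligned bases and Elovl1 and Elovl7 at 62.91%, and no other pair of these 5 genes passed 57.41%. Elovl3 was identical to each of the others at 52.34% to 56.65% of aligned bases. The genes themselves span chr13:41182495-41220405 (Elovl2), chr9:77917364-77984519 (Elovl5), chr4:118428093-118432953 (Elovl1), chr13:108214404-108287105 (Elovl7) and chr19:46131897-46135694 (Elovl3).

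Fads1, Fads2 and Fads3 are also given by a histidine box, since they lie in a row on chromosome 19 and are close in sequence while their levels differ widely. The box shown is the last of the gene, of the kind that starts with glutamine, and the capitals again mark its 5 codons within 45 coding bases.
Fads1: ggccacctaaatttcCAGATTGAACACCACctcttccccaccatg
Fads2: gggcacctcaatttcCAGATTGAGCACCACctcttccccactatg
Fads3: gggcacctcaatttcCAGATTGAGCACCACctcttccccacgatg
Each stretch runs across the junction of exons 10 and 11, at chr19:10194369-10194504 on the plus strand for Fads1, chr19:10064796-10065630 on the minus strand for Fads2 and chr19:10056268-10056440 on the plus strand for Fads3. Coding sequences were 69.75% identical between Fads2 and Fads3 and 67.04% between Fads1 and Fads2. The 3 genes sit at chr19:10182888-10196870 (Fads1), chr19:10064164-10101503 (Fads2) and chr19:10041548-10059671 (Fads3), with 4493 bases between Fads3 and Fads2 and 81385 bases between Fads2 and Fads1. Scd2 lies farther along the same chromosome, at chr19:44293676-44306864, and Fads6 at chr11:115279622-115297663. Of all sequences of 31 bases in their transcripts, Fads2 and Fads3 shared 24 with each other and Fads1 shared 0 with any other gene.

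CDAHFD split the elongases. In WT livers Elovl2, Elovl5 and Elovl3 fell, by 2.94-fold, 2.51-fold and 16.2-fold on the fitted scale, while Elovl1 rose 2.70-fold and Elovl7 8.04-fold. Among the desaturases Scd2 rose 7.18-fold and Fads3 2.38-fold, whereas Fads1, Fads2 and Fads6 were not called. In order of mean FPKM, NDWT ran Fads2, Elovl5, Elovl2, Elovl3, Fads1, Fads6, Elovl1, Fads3, Scd2 and Elovl7, where the neighbours Elovl5 and Elovl2, Elovl2 and Elovl3, and Elovl1 and Fads3 overlapped. HFWT ran Fads2, Fads1, Elovl5, Elovl2, Fads6, Elovl1, Elovl3, Fads3, Scd2 and Elovl7, with overlap from Fads1 through Elovl2 and from Elovl1 through Scd2. The same 7 genes were called in the same directions in TSP-1 null livers, 4 higher and 3 lower in each genotype. Of all genes tested, 48.8% were called in WT livers (44.1% higher and 4.62% lower) and 45.9% in TSP-1 null livers (41.9% higher and 4% lower). The 10 genes were chosen with earlier results of these data known, so these shares stand beside the counts without a test. Among the 4 genes called higher, Elovl7 passed the filter through the CDAHFD libraries only, so its call says nothing further. The diets did not overlap for 7 of the 10 genes in WT livers, 4 higher and 3 lower, where 56.2% of all genes did not (50.5% higher and 5.7% lower), and for 8 in TSP-1 null livers, 5 higher and 3 lower, where 57.8% did not (52.7% higher and 5.03% lower). The median gene was 0.53 higher on CDAHFD in WT livers and 0.50 higher in TSP-1 null livers on the log2 scale, and scaling by the median of ratios took this shift to about zero (−0.0054 and −0.011), with 3299 genes then higher and 2242 lower in WT livers against 6412 and 671 before.

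**Figure D1:**
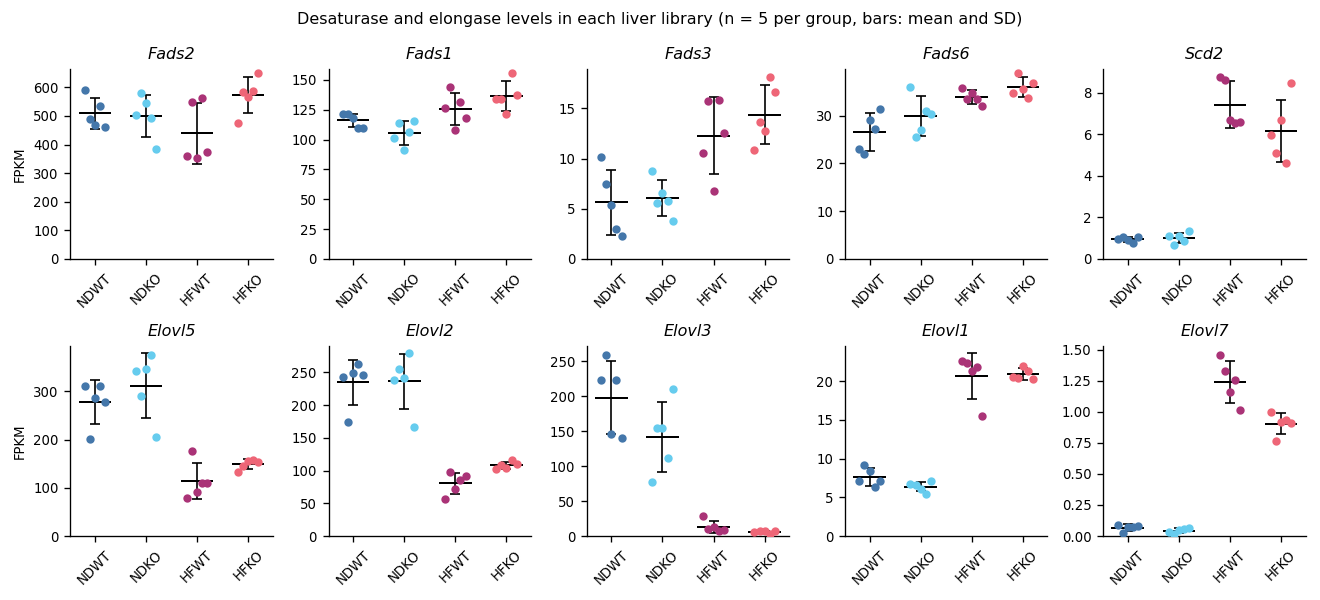
FPKM of each of the 10 genes (vertical axes from 0, each with its own scale) in the 4 groups, with a point for each library and a bar for the mean and SD of 5. Elovl2, Elovl5 and Elovl3 lie lower in every CDAHFD library than in any control diet library of the same genotype, Scd2, Elovl1 and Elovl7 lie higher, and Fads2 overlaps between all groups.

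Fads2, the enzyme of the first step, was the most abundant of the 10 genes in every group. Its level was 589, 491, 467, 534 and 462 FPKM (NDWT) and 504, 579, 544, 494 and 384 (NDKO) on the control diet, and 361, 548, 353, 564 and 373 (HFWT) and 476, 585, 567, 587 and 649 (HFKO) on CDAHFD. The HFWT libraries fell into a low set of 3 and a high set of 2, and every group overlapped every other. The diet difference was −0.24 in log2FC in WT livers (SE 0.14, FDR 0.134) and 0.20 in TSP-1 null livers (SE 0.14, FDR 0.208). The scaling moved these values: with median of ratios scaling Fads2 fell by 0.80 in WT livers (FDR 6.73e-05, called) and was at −0.34 in TSP-1 null livers (FDR 0.0484, under the fold threshold), and with quantile normalization it was at −0.0036 and 0.50, not called.

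Fads1, which acts after Elovl5, moved less than the elongases. Its means were 116 ± 5.78 FPKM (NDWT) and 106 ± 10.03 (NDKO) on the control diet, and 126 ± 13.6 (HFWT) and 136 ± 12.6 (HFKO) on CDAHFD. The control and CDAHFD ranges overlapped in WT livers (110 to 121 against 108 to 144) and did not in TSP-1 null livers (91.1 to 116 against 121 to 156). In the latter the log2FC was 0.37 (SE 0.082, FDR 5.0e-04), under the fold threshold, and with median of ratios scaling it was −0.17. In WT livers the log2FC was 0.11 (FDR 0.241), and −0.45 with median of ratios scaling, so the direction of Fads1 between diets depended on the scaling.

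Elovl5, the elongase between Fads2 and Fads1, measured 312, 200, 287, 311 and 279 FPKM (NDWT) and 341, 291, 346, 376 and 206 (NDKO) on the control diet, and 79.7, 177, 90.9, 109 and 111 (HFWT) and 132, 146, 156, 157 and 154 (HFKO) on CDAHFD. No CDAHFD library reached the lowest control library of its genotype. The log2FC was −1.33 in WT livers (SE 0.18, FDR 2.46e-06) and −1.04 in TSP-1 null livers (SE 0.18, FDR 4.91e-05).

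Elovl2, which makes the longest intermediates on the way to docosahexaenoic acid, followed the same pattern. It measured 242, 175, 250, 263 and 245 FPKM (NDWT) and 238, 256, 242, 279 and 167 (NDKO) on the control diet, and 56.7, 98.0, 71.2, 85.2 and 91.5 (HFWT) and 103, 108, 104, 117 and 110 (HFKO) on CDAHFD. The diets did not overlap in either genotype, and all 5 HFKO libraries lay above all 5 HFWT libraries. Between diets the log2FC was −1.56 in WT livers (SE 0.15, FDR 1.52e-08) and −1.11 in TSP-1 null livers (SE 0.15, FDR 1.6e-06). Both elongases fell further under median of ratios scaling, with Elovl2 at −2.12 and Elovl5 at −1.89 in WT livers.

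The ratios of successive enzymes in the pathway also differed between diets, and a ratio within a library does not depend on how libraries are scaled. Fads2 to Elovl5 was 1.87 ± 0.340 (SD, n = 5) (NDWT) and 1.64 ± 0.279 (NDKO) on the control diet, and 4.01 ± 0.839 (HFWT) and 3.84 ± 0.261 (HFKO) on CDAHFD. Fads1 to Elovl2 was 0.506 ± 0.109, 0.464 ± 0.132, 1.61 ± 0.359 and 1.26 ± 0.0640 in the same order, so that Elovl2 exceeded Fads1 in every control diet library and lay below it in every CDAHFD library. For both ratios the diets did not overlap in either genotype (two-sided exact permutation test, p = 0.00794, the smallest that 5 against 5 can give, 0.0238 after adjustment over 24 ratio tests). Both ratios reuse the values of elongases already called lower on CDAHFD, so these tests are not separate support for that fall. Elovl5 to Elovl2 stayed between 1.18 and 1.40 in the group means, and its diet difference did not pass the adjustment (exact permutation test, adjusted p = 0.0634 in WT livers and 0.505 in TSP-1 null livers). Fads2 to Fads1 ran from 3.48 to 4.801 in the group means, and did not pass either (exact permutation test, adjusted p = 0.0733 between diets in WT livers and 0.444 in TSP-1 null livers).

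**Figure D2:**
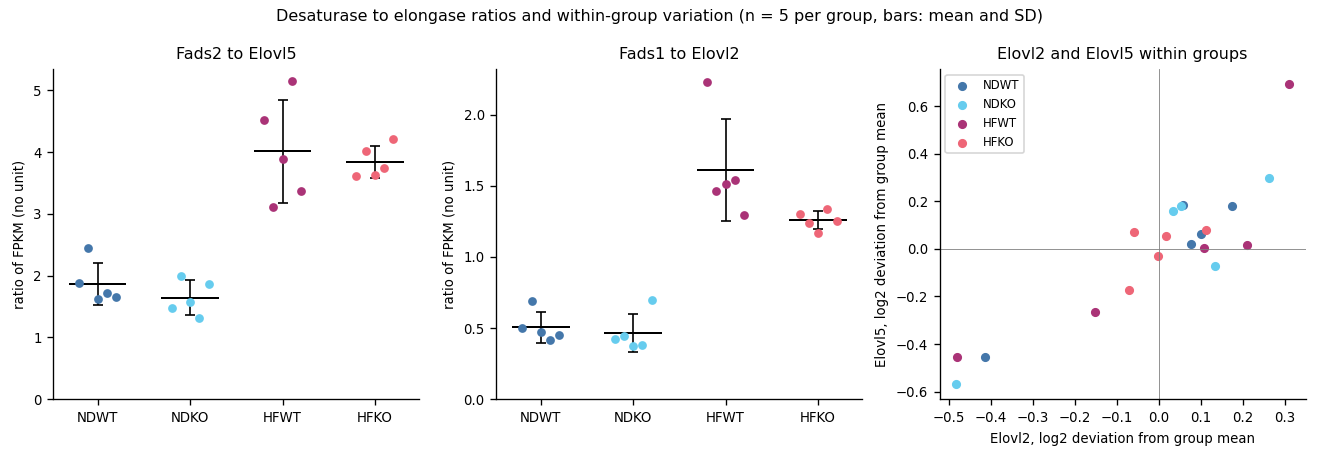
Ratio of FPKM of Fads2 to Elovl5 and of Fads1 to Elovl2 in each library (vertical axes from 0, no unit, bars for the mean and SD of 5), and the log2 deviations of Elovl5 against those of Elovl2 from their group means over the 20 libraries. The first ratio is 1.31 to 2.45 in control diet libraries and 3.10 to 5.16 in CDAHFD libraries, and the points of the third panel rise together, with a Pearson r of 0.888.

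Elovl2 and Elovl5 also varied together between mice of the same group. Over the 20 libraries, their log2 deviations from the group means had a Pearson r of 0.888 (permutation test within groups with 100000 resamples, p = 0.00017, 0.00765 after adjustment over 45 pairs of genes) and a Spearman rho of 0.698 (permutation p = 0.00151, adjusted 0.0679). Without the 2 libraries farthest from the median of Elovl2, r was 0.818. It was 0.931 over the 10 control diet libraries and 0.846 over the 10 CDAHFD libraries. Among the 45 pairs it was the 1 pair that passed the adjustment by Pearson's r, and 0 passed by Spearman's rho. By adjusted p of Pearson's r, the next were Elovl2 with Elovl3 (r = −0.707, rho = −0.582, permutation p adjusted 0.0603 and 0.17), Fads2 with Fads3 (r = 0.583, rho = 0.590, permutation p adjusted 0.0699 and 0.17) and Fads2 with Elovl5 (r = 0.668, rho = 0.581, permutation p adjusted 0.12 and 0.17). The library NDWT replicate 2 was lowest of its group for both Elovl2 and Elovl5, as were NDKO replicate 5 and HFWT replicate 1 of theirs.

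Because Elovl2 and Elovl5 moved together, the 250 bases upstream of a transcription start of each are shown, as RefSeq gives them on GRCm38.p6. Capitals mark matches, on either strand, to the GC box (letters GGGCGG), the CCAAT box (as named) or the E box (letters CACGTG).
Elovl2: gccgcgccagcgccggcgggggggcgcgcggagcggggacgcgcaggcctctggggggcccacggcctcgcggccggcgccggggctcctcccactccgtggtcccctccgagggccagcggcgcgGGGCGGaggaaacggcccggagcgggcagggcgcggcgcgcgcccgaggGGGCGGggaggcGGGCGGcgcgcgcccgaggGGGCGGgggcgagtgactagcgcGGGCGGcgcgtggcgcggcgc
Elovl5: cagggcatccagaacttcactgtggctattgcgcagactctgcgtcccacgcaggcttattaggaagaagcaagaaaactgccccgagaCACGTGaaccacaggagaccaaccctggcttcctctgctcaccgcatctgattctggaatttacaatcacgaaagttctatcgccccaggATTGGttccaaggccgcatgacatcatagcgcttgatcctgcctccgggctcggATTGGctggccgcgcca
The table gave 7 of the 10 genes a window, and Elovl2 has 2 start sites in it, of which the one with the higher position is shown. The windows are chr13:41220404-41220653 on the minus strand for Elovl2 and chr9:77917115-77917364 on the plus strand for Elovl5. They had little in common by these motifs: the Elovl2 window held 5 GC boxes and was 87.2% G and C, and the window of its other start site held 0 GC boxes. The Elovl5 window held 0 GC boxes, 2 CCAAT boxes and 1 E box and was 55.6% G and C. Of 32851 windows of this length in the table, 32.74% held a GC box, 33.85% a CCAAT box and 6.021% an E box, and the median G and C content was 52.4%. A sterol response element (0.07306% of windows), a direct repeat of the nuclear receptor motif with a spacer of 1 base (0.03348%), a cyclic AMP response element (TGACGTCA, 1.546%) and a TATA box (TATAAA, 12.37%) were searched as well and had 0 matches in these windows and in those of Fads2, Fads3, Fads6, Elovl1 and Elovl7. A match or its absence describes these letters only.

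Elovl3 showed the largest fall of the 10 genes. It elongates saturated and monounsaturated chains and is known in mouse liver for differing between the sexes and over the day. It measured 223, 259, 146, 223 and 140 FPKM (NDWT) and 76.9, 154, 154, 111 and 210 (NDKO) on the control diet, and 28.4, 9.82, 13.3, 7.49 and 7.996 (HFWT) and 5.80, 7.41, 6.65, 3.60 and 7.39 (HFKO) on CDAHFD. The highest CDAHFD library, HFWT replicate 1, was still below the lowest control library. The log2FC was −4.02 in WT livers (SE 0.32, FDR 1.8e-09) and −4.46 in TSP-1 null livers (SE 0.32, FDR 5.45e-10), and −4.34 in WT livers without HFWT replicate 1. By mean FPKM Elovl3 was the fourth of the 10 genes in NDWT and the seventh in HFWT, and the fourth in NDKO and the eighth in HFKO.

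Elovl3 shares 10 bases of its span with Pitx3 on the opposite strand, and whether the counting used strand is not given in the sources used here. Pitx3 measured 7.40 ± 3.90 FPKM (NDWT) and 5.53 ± 2.36 (NDKO) on the control diet, and 0.296 ± 0.312 (HFWT) and 0.0738 ± 0.0724 (HFKO) on CDAHFD, or 1.52% to 3.93% of Elovl3 in the group means, and its part in the fall of Elovl3 was not tested. Genes known to be higher in male mouse liver fell on CDAHFD beside Elovl3. Of 11 tested, 10 were called lower in WT and 11 in TSP-1 null livers, where 4.62% and 4% of all genes were. Examples in WT livers are Cyp7b1, a hydroxylase of oxysterols (121 to 17.6 FPKM, log2FC −2.76), and Hsd3b5, a steroid-metabolizing enzyme (78.3 to 2.20 FPKM, log2FC −5.54). Of 16 clock genes 6 were called higher in WT livers and 7 in TSP-1 null livers, where 44.1% and 41.9% of all genes were, and 0 were called lower, with Per1, a repressor of the clock, at 2.24 and 6.56 FPKM in NDWT and HFWT (log2FC 1.60). Of 11 genes known to be higher in female liver 3 were tested: Cyp2b9 and Cyp2a4 were called higher in each genotype, and Cux2 was not called in WT livers (log2FC 0.99) and was called lower in TSP-1 null livers (log2FC −1.09). The summed level of the 11 was 0.546 to 1.02 FPKM (NDWT) and 1.08 to 3.55 (NDKO) on the control diet, and 3.47 to 25.8 (HFWT) and 16.7 to 78.1 (HFKO) on CDAHFD. As these sums were low on the control diet, Cyp2b9 and Cyp2a4 may have passed the filter mainly through the CDAHFD libraries, and their calls then add little. The part of sex-biased or clock genes in the values of Elovl3 was not tested.

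Elovl1, which serves sphingolipids by lengthening saturated chains, was higher in every CDAHFD library than in any control library. It measured 7.09, 9.14, 8.39, 6.29 and 7.06 FPKM (NDWT) and 6.77, 6.54, 6.08, 5.49 and 7.04 (NDKO) on the control diet, and 22.5, 22.3, 21.3, 21.8 and 15.5 (HFWT) and 20.5, 20.5, 22.0, 21.3 and 20.3 (HFKO) on CDAHFD. The log2FC was 1.43 in WT livers (SE 0.11, FDR 5.72e-10) and 1.70 in TSP-1 null livers (SE 0.11, FDR 7.7e-11). The span of Elovl1 shares 53 bases with that of Cdc20, a cell cycle gene on the opposite strand, which was also higher on CDAHFD (0.630 ± 0.317 and 4.58 ± 0.792 FPKM in NDWT and HFWT, 0.415 ± 0.430 and 7.32 ± 3.57 in NDKO and HFKO). The 2 genes had 23 sequences of 31 bases in common, of 2818 in Elovl1, and the part of Cdc20 in the level of Elovl1 was not tested. Against Elovl3, Elovl1 went from 0.0407 ± 0.0126 in NDWT to 1.90 ± 0.787 in HFWT and from 0.0505 ± 0.0217 in NDKO to 3.65 ± 1.31 in HFKO.

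Elovl7 was the least abundant of the 10 genes. It measured 0.087, 0.022, 0.072, 0.075 and 0.083 FPKM (NDWT) and 0.036, 0.016, 0.049, 0.058 and 0.064 (NDKO) on the control diet, and 1.46, 1.33, 1.16, 1.25 and 1.01 (HFWT) and 1.00, 0.765, 0.921, 0.931 and 0.908 (HFKO) on CDAHFD. The control diet values rested on 2 to 11 fragments per library and the CDAHFD values on 65 to 142, so the size of the rise is imprecise, and as the gene passed the filter through the CDAHFD libraries only, a difference between diets had to follow. The ratio of the mean FPKM was 18.3 in WT and 20.3 in TSP-1 null livers, whereas the log2FC on FPKM + 0.1, which understates the change of such low genes, was 3.01 (SE 0.18, FDR 2.39e-11) and 2.80 (SE 0.18, FDR 8.28e-11). It was 1.07 in WT livers with a pseudocount of 1 and 4.10 with one of 0.01.

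Scd2, a stearoyl-CoA desaturase that makes monounsaturated fatty acids and is best known from brain and the newborn, is the minor form in adult liver beside Scd1. It measured 0.961, 1.04, 0.896, 0.780 and 1.05 FPKM (NDWT) and 1.12, 0.686, 1.08, 0.849 and 1.33 (NDKO) on the control diet, and 8.76, 8.63, 6.68, 6.56 and 6.60 (HFWT) and 5.96, 5.11, 6.68, 4.61 and 8.48 (HFKO) on CDAHFD. The diets did not overlap, and the log2FC was 2.84 in WT livers (SE 0.17, FDR 2.28e-11) and 2.49 in TSP-1 null livers (SE 0.17, FDR 1.74e-10). Scd1 went the other way, from 1562 ± 362.5 FPKM in NDWT to 49.1 ± 14.96 in HFWT (log2FC −5.004, FDR 1.47e-10) and from 866 ± 420 in NDKO to 71.1 ± 34.4 in HFKO (log2FC −3.61). Scd2 therefore made up 0.0629% ± 0.0131 of the sum of both in NDWT and 0.142% ± 0.0779 in NDKO, against 14.1% ± 4.74 in HFWT and 9.04% ± 3.43 in HFKO, without overlap between diets (exact permutation test on the log2 ratio, p = 0.00794, adjusted 0.0238). Both genes were already called between diets, so this test is not separate support. The coding sequences of Scd1 and Scd2 are 90.33% identical and their transcripts share 253 sequences of 31 bases, of 5461 in Scd2, so Scd2 levels are uncertain where Scd1 is abundant.

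Fads3, a relative of Fads1 and Fads2 reported to act on sphingoid bases, spread widely within groups. It measured 10.2, 7.44, 5.36, 2.98 and 2.24 FPKM (NDWT) and 8.80, 5.57, 6.53, 5.76 and 3.75 (NDKO) on the control diet, and 10.5, 15.7, 6.76, 15.9 and 12.6 (HFWT) and 10.8, 13.7, 12.7, 18.2 and 16.6 (HFKO) on CDAHFD. The diets overlapped in WT livers and did not in TSP-1 null livers. The log2FC was 1.25 in WT livers (SE 0.33, FDR 0.0023) and 1.26 in TSP-1 null livers (SE 0.33, FDR 0.0023). Under median of ratios scaling it was 0.70 (FDR 0.0741) and 0.73 (FDR 0.065), which is short of a call. Fads6, a family member whose substrate is not established, moved little, from 26.6 ± 4.02 FPKM in NDWT to 34.0 ± 1.47 in HFWT (log2FC 0.36, FDR 0.0021, under the fold threshold) and from 29.97 ± 4.11 in NDKO to 36.0 ± 2.03 in HFKO (log2FC 0.27, FDR 0.0158). Its direction reversed under median of ratios scaling, at −0.19 and −0.26. Of 6640 sequences of 31 bases in Fads6 transcripts, 467 were shared with other genes, and their part in its level was not tested.

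**Figure D3:**
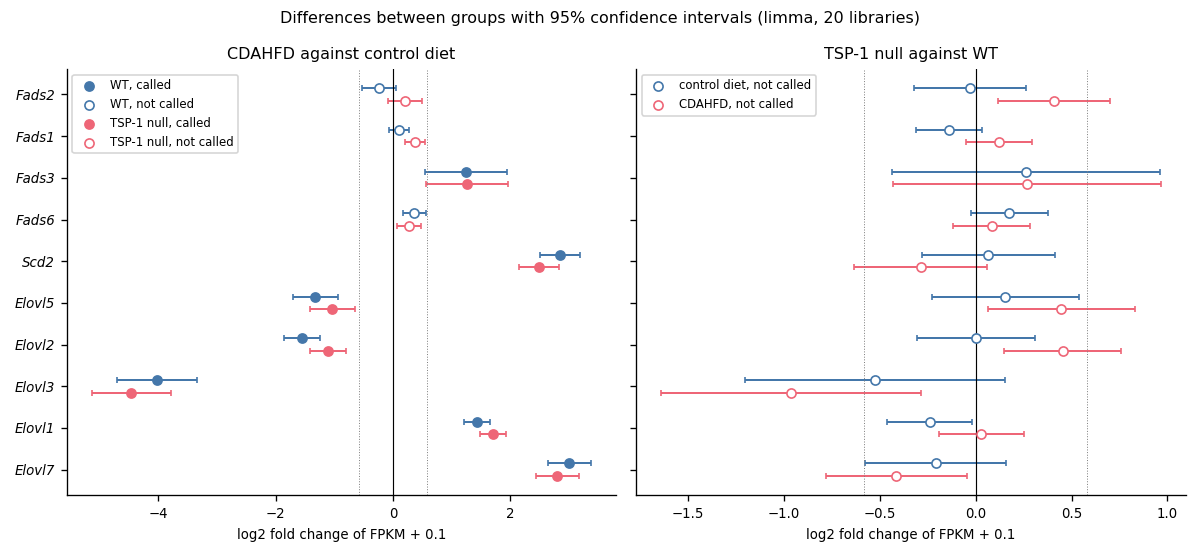
Log2 fold changes of FPKM + 0.1 (horizontal axes) of the 10 genes between diets in each genotype (left) and between genotypes on each diet (right), with 95% confidence intervals from limma, filled points where called and dotted lines at the fold threshold of 0.58. In the left panel 7 genes are called in both genotypes, and in the right panel 0 are called.

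Between the genotypes, 0 of the 10 genes were called by limma on either diet, where 4.77% of all genes tested were called on the control diet (1.74% higher and 3.03% lower in TSP-1 null) and 0.496% on CDAHFD (0.165% higher and 0.33% lower). An unadjusted p under 0.05 was reached by 1 gene on the control diet (27.3% of all genes tested) and by 5 genes on CDAHFD (17.2%), and voom on recovered fragments called 0 on both. On the control diet no gene separated the groups, where 9.03% of all genes did (2.33% higher and 6.69% lower), and the lowest FDR was 0.149, for Elovl1 (log2FC −0.24, 95% interval −0.46 to −0.017).

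On CDAHFD the groups did not overlap for 3 of the 10 genes, against 4.98% of all genes tested (0.847% higher and 4.13% lower), without a call for any. Elovl2 was higher in the libraries labelled TSP-1 null (80.5 ± 16.6 FPKM in HFWT, 108 ± 5.57 in HFKO, log2FC 0.45, 95% interval 0.15 to 0.76, FDR 0.126). Elovl3 was lower (13.4 ± 8.69 and 6.17 ± 1.58 FPKM, log2FC −0.96, 95% interval −1.64 to −0.28, FDR 0.139), and so was Elovl7 (1.24 ± 0.168 and 0.905 ± 0.0860 FPKM, log2FC −0.41, 95% interval −0.78 to −0.044, FDR 0.237). Fads2 and Elovl5 had intervals above zero but overlapped (log2FC 0.41 and 0.45, FDR 0.146 and 0.221). HFWT replicate 1 was the highest of its group for Elovl3 and the lowest for Elovl2, and without it the log2FC was −0.64 for Elovl3 (FDR 0.276) and 0.33 for Elovl2 (FDR 0.255).

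The genotype difference was not called as different between the diets for any gene: limma called 0 of the 10 genes for the diet by genotype interaction, where 0.647% of all genes tested were called (0.337% higher and 0.31% lower), voom called 0, and 3 genes had an unadjusted p under 0.05 (15.1% of all genes). These were Fads1 (interaction 0.26, 95% interval 0.018 to 0.50), Fads2 (0.44, 0.023 to 0.85) and Elovl2 (0.45, 0.019 to 0.88), and the lowest FDR was 0.288.

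The other enzymes of desaturation and elongation changed unevenly. Of 20 such genes 15 passed the filter. On CDAHFD 7 were called higher and 2 lower in WT livers (44.1% and 4.62% of all genes tested). In TSP-1 null livers 6 were called higher and 1 lower (41.9% and 4% of all genes tested). The split depended on the scaling: median of ratios gave 3 higher and 5 lower in WT livers, and 3 higher and 4 lower in those of the TSP-1 null mice, and 4 and 3 in each genotype under quantile normalization. Without either, the median log2FC of the 15 was 0.12 and 0.22 beside 0.53 and 0.50 over all genes. The dehydratases of the elongation cycle differed among themselves: Hacd4 went from 0.371 ± 0.145 to 1.97 ± 0.0767 FPKM in WT livers (log2FC 2.20) and Hacd2 from 13.1 ± 0.940 to 19.8 ± 1.33 (log2FC 0.59), both called in both genotypes, although Hacd4 passed the filter through the CDAHFD libraries, so that a difference had to follow. In WT livers Hacd1 (log2FC −0.097) and Hacd3 (−0.23), the most abundant, were not called. Tecr, the enoyl reductase that ends the cycle, stayed at 98.5 ± 10.7 and 102 ± 13.4 FPKM in NDWT and HFWT (log2FC 0.041).

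The genes of cytochrome b5 and its reductases showed the same mixture. Cyb5r1, a cytochrome b5 reductase, was called higher in WT (1.23 to 4.22 FPKM, log2FC 1.69, FDR 4.68e-11) and in TSP-1 null livers (log2FC 1.53), as was the mitochondrial cytochrome b5 gene Cyb5b (log2FC 0.69 and 1.00). Cyb5r4 was called higher in WT livers alone (log2FC 0.65, and 0.58 in TSP-1 null livers, just short of the fold threshold), and the difference was not called (interaction −0.071). Cyb5a, the cytochrome b5 of the endoplasmic reticulum and the most abundant of these genes (353 ± 15.9 FPKM in NDWT), and the reductase Cyb5r3 were not called, at log2FC −0.016 and 0.12 in WT livers. The dihydroceramide desaturases Degs1 (20.6 to 32.7 FPKM in WT livers, log2FC 0.66) and Degs2 (0.270 to 2.72 FPKM, log2FC 2.98), which act in sphingolipid synthesis, were called higher in both genotypes, but Degs2, like Hacd4, passed the filter through the CDAHFD libraries only. Elovl6, which lengthens palmitate, was called lower in WT livers (9.73 to 6.41 FPKM, log2FC −0.60) and not in TSP-1 null livers (log2FC −0.37), and the difference between the genotypes was not called. Scd3, Scd4, Elovl4, Tecrl and Cyb5r2 stayed below the filter, at 0.175 FPKM or less in every library.

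**Figure D4:**
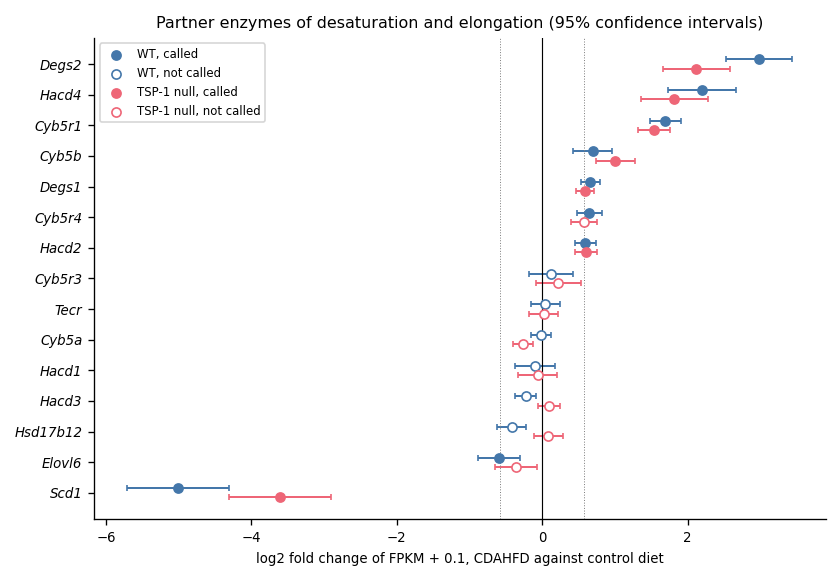
Log2 fold changes of FPKM + 0.1 on CDAHFD against control diet (horizontal axis) of the 15 partner enzymes that passed the filter, in WT and TSP-1 null livers, with 95% confidence intervals from limma, filled points where called and dotted lines at 0.58. Scd1 lies far to the left at −5.004 and −3.61, and Degs2, Hacd4 and Cyb5r1 lie farthest to the right.

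Between the genotypes, 1 of these 15 enzymes was called, on the control diet, where 4.77% of all genes tested were called. Hsd17b12, the ketoacyl reductase of the elongation cycle, was 67.9 ± 5.13 FPKM in the libraries labelled WT and 42.1 ± 7.28 in those labelled TSP-1 null, without overlap (log2FC −0.70, SE 0.095, FDR 1.3e-04). On CDAHFD it was 50.7 ± 4.26 and 44.0 ± 2.32 FPKM (log2FC −0.20, not called), and the interaction was 0.50 (FDR 0.076). Hsd17b12 is at chr2:94032689-94157964, 23.95 Mb before Thbs1 on the same chromosome, and 0 of the 10 genes lie on chromosome 2. Whether its difference came with the chromosome around the targeted locus was not tested.

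Genes that feed or use the pathway were read from further lists. Of all genes tested, 44.1% were called higher and 4.62% lower in WT livers, and 41.9% and 4% in TSP-1 null livers. Of 16 tested genes of lipogenesis and its control, 6 were called higher and 4 lower in WT livers, and 6 and 3 in TSP-1 null livers. Srebf1, an activator of desaturase and elongase transcription, rose from 8.46 ± 1.23 to 24.2 ± 4.56 FPKM in WT livers (log2FC 1.498, FDR 9.1e-07). The lipogenic enzymes Fasn (11.3 to 23.4 FPKM, log2FC 0.97) and Acly (17.7 to 28.7 FPKM, log2FC 0.68) were called higher there too. Malic enzyme Me1, a source of NADPH, fell from 37.7 to 8.92 FPKM (log2FC −2.10). Acacb, which makes malonyl-CoA at the mitochondrion, fell from 8.87 to 2.88 FPKM (log2FC −1.54). Peroxisomal enzymes, which shorten very long polyunsaturated chains in the last step to docosahexaenoic acid, went mostly down, with 8 of 10 called lower and 1 higher in WT livers and 5 lower and 2 higher in TSP-1 null livers.

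Of 16 targets of PPARα, the fatty acid receptor, 12 were called lower in WT livers and 6 in TSP-1 null livers, and 0 higher in either, but 0 were called for the interaction. An example is Acot1, an acyl-CoA thioesterase, which fell from 277 to 15.5 FPKM in WT livers (log2FC −4.22). Of 15 tested genes of polyunsaturated fatty acid activation and entry into phospholipids, 7 were called higher and 3 lower in WT livers, among them the lysophospholipid acyltransferase Lpcat2 (1.27 to 4.58 FPKM, log2FC 1.78) and the acyl-CoA synthetase Acsl1 (390 to 77.5 FPKM, log2FC −2.36). In TSP-1 null livers 8 were called higher and 1 lower. Of all genes tested, 44.1% were called higher in WT and 41.9% in TSP-1 null livers, and 4.62% and 4% lower. Of 11 tested enzymes that turn arachidonic acid into eicosanoids or degrade them, 5 were called higher and 2 lower in each genotype, with Alox5ap, the partner of the leukotriene-forming lipoxygenase, at 4.11 and 33.6 FPKM in NDWT and HFWT (log2FC 2.99) and the epoxide hydrolase Ephx2 at 667 and 219 FPKM (log2FC −1.62).

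Between the genotypes, some genes of the lists were called on the control diet, where 4.77% of all genes tested were called (1.74% higher and 3.03% lower). Lower in the libraries labelled TSP-1 null were the liver fatty acid binding protein Fabp1 (log2FC −0.96, interaction 1.17, FDR 0.026), the phospholipases Pla2g6 (−0.73) and Pla2g4a (−0.70), the nuclear receptor Pparg (−0.75) the PPARα target Vnn1 (−1.35), the myofibroblast marker Acta2 (−1.13) and the adipocyte marker Cfd (−1.57). Higher were the female-biased gene Cux2 (2.49), the hepatocyte markers Cps1 (1.10) and Pck1 (0.82) and the macrophage marker Trem2 (0.79, interaction −1.28, FDR 0.026). Acta2 was 1 of 9 stellate and myofibroblast markers, of which 8 were not called and the median log2FC was 0.059. Trem2 was 1 of 10 macrophage markers (median 0.0072), and Cps1 and Pck1 were 2 of 10 hepatocyte markers (median 0.19). Cfd was 1 of 2 tested adipocyte markers and Cux2 1 of 3 tested female-biased genes. Of 16 clock genes 1 was higher (Per1, 1.13) and 3 were lower (Bhlhe41, −1.47, Bhlhe40, −1.14, and Per2, −0.77). The interaction was called for Bhlhe40 (1.30) and Bhlhe41 (1.51), where 0.647% of all genes tested were called. Of 11 tested male-biased genes 4 were called lower on the control diet and 2 on CDAHFD, where 3.03% and 0.33% of all genes tested were. On CDAHFD Cyp4a12a, an arachidonic acid hydroxylase, was at −1.75 (FDR 4.8e-04). The summed level of the 12 listed male-biased genes went the other way on the control diet, at 7978.5 ± 1385 FPKM in NDWT and 9922.6 ± 721.2 in NDKO. On CDAHFD this sum was 4033.1 ± 1082 FPKM in HFWT and 2797 ± 1184 in HFKO.

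Markers of other cell types also differed between diets. Beside the counts below, 44.1% of all genes tested were called higher in WT and 41.9% in TSP-1 null livers, and 4.62% and 4% lower. Of 10 macrophage markers 9 were called higher and 1 lower in both genotypes, and their summed level was 130 to 178 FPKM (NDWT) and 125 to 209 (NDKO) on the control diet, and 1152 to 1532 (HFWT) and 698 to 1477 (HFKO) on CDAHFD. All 9 stellate and myofibroblast markers were called higher in both genotypes (51.7 to 65.1, 65.9 to 71.8, 275 to 533 and 290 to 382 FPKM summed, in the same order). All 6 tested cholangiocyte markers were called higher (20.6 to 24.4, 18.3 to 22.3, 302 to 500.4 and 192 to 374 FPKM), 8 of 9 T and B cell markers (5.82 to 13.9, 6.77 to 18.6, 19.2 to 37.7 and 18.9 to 33.2 FPKM) and all 3 tested neutrophil markers (2.49 to 5.21, 1.65 to 4.99, 22.2 to 37.7 and 14.6 to 28.1 FPKM). Cftr, Ly6g, Mpo and Elane of these lists did not pass the filter. For a marker that passed only through the CDAHFD libraries, a rise had to follow. As the sums of T and B cell and neutrophil markers were low on the control diet, some of these calls may add little. Of 10 hepatocyte markers 3 were called lower in WT and 4 in TSP-1 null livers, with sums of 39606 to 46400, 44245 to 51386, 29338 to 41784 and 37738 to 48891 FPKM. Endothelial markers were called higher for 2 and 3 of 8, erythroid markers lower for 1 and 2 of 5, and of the 6 adipocyte markers Adipoq, Lep, Plin1 and Retn stayed at 0.114 FPKM or less while of the other 2 Fabp4 was called higher in both genotypes and 1 was called lower in WT livers. The part of these cells in the levels of the 10 genes was not tested.

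Outside the 10 genes themselves, 11655 genes were compared for how like their deviations from the group means were to those of each of the 10 over the 20 libraries, and the 3 with the highest Pearson r are named. For Elovl2 they were Slc27a2, a very long chain acyl-CoA synthetase (r = 0.869), Slc16a5 (0.866) and Nipal1 (0.834). For Elovl5 they were Nlrp12 (0.874), Cpt1a, the carnitine palmitoyltransferase that admits fatty acids to mitochondria (0.862), and again Slc16a5 (0.822). Fads2 was closest to Mettl7b (0.854), 9030616G12Rik (0.833) and the insulin receptor substrate Irs2 (0.779), and Fads3 to Zbtb10 (0.862), Apoa5 (0.833) and Arhgap21 (0.794). Scd2 was closest to Rcan3 (0.885), Agap1 (0.884) and Arhgef6 (0.867), Elovl1 to Itpk1 (0.887), Nudt16l1 (0.859) and the T cell kinase Lck (0.854), and Elovl3 to Osbpl5 (0.852), Dtx4 (0.824) and Uba1 (0.817). The others were Myct1 (0.860), C87436 (0.772) and 1810021B22Rik (0.707) for Fads1, Hunk (0.873), Aim1 (0.863) and Slc35e2 (0.830) for Fads6, and Trp53bp2 (0.80), Nat10 (0.786) and Elp2 (0.777) for Elovl7. Each r is the highest of many and a description without a test, and both genes of a pair come from the same libraries.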

How the data were processed

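Poly(A) RNA of right liver lobe was sequenced as stranded libraries, and the deposited values are FPKM per gene to 3 decimals for 20 libraries and 38924 genes. The submitters' processing notes name STAR 2.5.2, Subread 1.5.1, featureCounts and the build GRCh38, whereas the table's coordinates are those of mouse GRCm38, which are used here. Whether counting used strand is not given in the sources used here. Depth was computed by a search for the library size at which FPKM values gave whole fragments. Values with a rounding error under 0.05 fragments were then checked, and 100% were whole (tolerance 0.1), which the search itself favours. No other columns of per-sample values were left out.

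limma 3.58.1 in R 4.3.3 (lmFit with contrasts, eBayes with a trend) was fitted to log2(FPKM + 0.1) of all 20 libraries for the 14524 genes that exceeded 0.5 FPKM in 5 or more libraries, with Benjamini-Hochberg adjustment over these genes. A call needed FDR under 0.05 and an absolute log2 fold change above 0.58. Fold changes on this scale understate those of low genes. Ratios were compared by two-sided exact permutation tests and correlations by within-group permutation in Python 3.11.15 with scipy 1.17.1. The script was tested on simulated data. All 10 genes are described; of other genes, those fixed in the lists, and for each of the 10 the 3 with the highest correlation of deviations, are named. The 10 genes and the lists were chosen with earlier results of these data known. List genes were matched by symbol, and 7 by identifier. Alternatives changed the pseudocount, the filter, the scaling (median of ratios, quantile), the fold threshold, the libraries fitted and the model (voom on recovered fragments, replicate number as a block), and left out each library. Each library is labelled as a separate mouse, and intervals cover the spread between these mice only.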

Additional observations from a re-analysis of the deposited data

Results flagged for a closer look

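Each of the 10 genes in each of the 4 groups was searched for a library far from the other 4, and 4 of 40 such sets had a gap to the nearest library above 0.71 of the whole range, where chance gives about 1 in 20. Elovl1 in HFWT replicate 5 was 15.492 FPKM, lowest of its group (gap 0.824 of the range), and without it the diet log2FC in WT livers was 1.53 and the genotype log2FC on CDAHFD was −0.07. Elovl2 in NDWT replicate 2 was 174.796 FPKM, again the lowest (gap 0.77), and without it the diet log2FC was −1.66. Elovl3 in HFWT replicate 1 was 28.397 FPKM, the highest of its group (gap 0.722), and without it the diet log2FC was −4.34 and the genotype log2FC on CDAHFD −0.64. Elovl7 in NDWT replicate 2 was 0.022 FPKM, which rests on 2 fragments (gap 0.769), and without it the diet log2FC was 2.90.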

How the results depend on the processing

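The number of the 10 genes called stayed within 1.5 times of 7 for both diet comparisons and at 0 for both genotype comparisons and the interaction under every alternative run, with 6 in TSP-1 null livers under median of ratios scaling, 6 in WT livers under quantile normalization, and 8 and 9 with no fold threshold. Leaving out each library gave 7 to 7 in both diet comparisons and 0 in the others. Median of ratios scaling reversed Fads1 (−0.45 in WT and −0.17 in TSP-1 null livers), Fads6 (−0.19 and −0.26) and Fads2 (−0.34 in TSP-1 null livers, and 0.046 between genotypes on the control diet). The interaction reversed for Elovl7 with a pseudocount of 0.01 (0.053) and with voom (0.19), and for Fads3 with a pseudocount of 0.01 (−0.0010). Without 1 library at a time, the genotype log2FC on the control diet ran from −0.10 to 0.12 for Elovl2, −0.085 to 0.064 for Fads2, −0.0099 to 0.52 for Fads3 and −0.032 to 0.18 for Scd2, that of Elovl1 on CDAHFD from −0.072 to 0.063, and the interaction of Fads3 from −0.26 to 0.28. None of these was called. The Fads3 diet call was lost under median of ratios scaling (0.70 and 0.73) and, in WT livers, quantile normalization (0.72), and the cause was not tested. Over all genes, 693 were called between genotypes on the control diet but 393 with a pseudocount of 1 and 1899 with no fold threshold. On CDAHFD 72 were called, but 127 with no filter, 132 with voom, 40 when only those groups were fitted and 163 with no fold threshold, and 38 (without HFKO replicate 4) to 84 without 1 library at a time, with 45 without HFWT replicate 3 and 47 without HFWT replicate 2 or HFKO replicate 1. The interaction was called for 94 genes, 54 with no filter and 36 (without NDKO replicate 4) to 184 (without NDKO replicate 2) without 1 library at a time. Elovl7 on the control diet is limited by its 2 to 11 fragments per library.

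The groups share replicate numbers, but the numbers did not pair the libraries: over 30 pairs of same-numbered libraries the correlation of deviations ran from −0.133 to 0.0812, with 0 above 0.1. With the replicate number as a block, 7, 7, 0, 0 and 0 of the 10 genes were called for the 2 diet comparisons, the 2 genotype comparisons and the interaction, and 7097, 6668, 677, 61 and 86 of all genes.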
